A study of Mus musculus with 8 samples.

Results

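Whole mouse embryos taken on gestational day 9 from saline-injected dams were profiled on 4 arrays, which are 4 of the 8 samples in the series. The samples were chosen by their treatment label, saline, and no measured value entered that rule. Earlier results of these data were known when the samples and the gene lists used below were chosen. The mice were of the CD-1 stock, an outbred stock, with no genetic change given. Dams received saline by intraperitoneal injection and were killed 3 h later, when the embryos were explanted and total RNA was extracted from whole embryos. The embryos were therefore vehicle-treated through the dam and not untouched. The other 4 samples came from dams given hydroxyurea at 400 mg/kg and are not compared here. The study states 4 independent experiments. The sources used here do not say which sample belongs to which experiment, how many embryos or litters each RNA pooled, or whether the yolk sac was removed, so the spread below is that between these samples and the numbers saline 1 to saline 4 are only names.

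On this day of gestation the mouse embryo has a beating heart, a closing neural tube, somites being added at the tail end, pharyngeal arches and the first limb buds. Its blood is primitive: the circulating red cells formed in the blood islands of the yolk sac and carry embryonic globins. The visceral endoderm of the yolk sac makes the serum proteins that the liver makes later, such as alpha-fetoprotein, transthyretin and apolipoproteins, and takes up maternal protein through the cubilin receptor. Cells of the embryo proper divide fast, so transcripts of ribosomal proteins, DNA replication and histones are abundant in such tissue.

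Each level below is the log2 of the array's background-subtracted Cy3 signal minus the 75th percentile of that array over all non-control probes, so that 0 is the 75th percentile and 1 unit is a factor of 2. A probe was retained when it was marked well above background on all 4 arrays. Of 55681 probes 27706 (49.8%) were retained, and 19719 were well above background on 0 arrays. Below, above background always means marked well above background. A weaker flag, for positive and significant signal, passed more probes, so a probe without the stronger mark can still carry signal. Of 20145 gene symbols with a probe, 13860 had at least 1 retained probe (68.8%), and each gene is given by its retained probe with the highest mean. Signals of different probes are not on 1 scale of RNA amount: among 3422 genes with at least 2 retained probes, the median SD between the probes of a gene was 1.36. A rank below is thus a rank of probe signal. Counts of genes of a tissue, pathway or family below cover the members of 34 chosen lists, and not necessarily all such genes on the array. Each share of retained members stands against the 68.8% of all genes. The arrays had 59305 spots each, 53.6% to 62.3% of them well above background and 0 saturated, and the 75th percentile of the signal lay between 302 and 516. Saline 1 and 2 were on 1 slide, scanned at 3 micrometres, and saline 3 and 4 on the other, scanned at 5 micrometres. Array signals carry no counts, so the precision of each mean rests on its 4 arrays.

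The promoters of 8 genes are shown because these genes lead the results: 3 are globin genes and 2 histone genes with very bright probes, and 3 are yolk sac genes with wide differences between arrays. They are RefSeq sequences of GRCm38.p6, each 300 bases long, from 250 bases before to 50 after the start of the gene, 5′ to 3′ on the gene's strand. Capitals mark the words searched: the words AGATAA or AGATAG and TGATAA or TGATAG (the sequence read by GATA factors, which include the erythroid regulator Gata1), CACCC (read by erythroid Klf1 among others), CCAAT and GTTAAT (part of the site of the liver and yolk sac factor Hnf1), all on both strands, and TATAAA on the gene's strand. Words may overlap.
Hba-x, chr11:32276350-32276649, plus strand: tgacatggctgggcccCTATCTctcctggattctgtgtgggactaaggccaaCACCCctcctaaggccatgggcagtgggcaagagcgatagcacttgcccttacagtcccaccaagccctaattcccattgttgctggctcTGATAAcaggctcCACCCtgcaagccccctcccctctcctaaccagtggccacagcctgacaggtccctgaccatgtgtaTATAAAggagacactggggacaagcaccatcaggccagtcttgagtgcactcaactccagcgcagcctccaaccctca
Hba-a2, chr11:32296242-32296541, plus strand: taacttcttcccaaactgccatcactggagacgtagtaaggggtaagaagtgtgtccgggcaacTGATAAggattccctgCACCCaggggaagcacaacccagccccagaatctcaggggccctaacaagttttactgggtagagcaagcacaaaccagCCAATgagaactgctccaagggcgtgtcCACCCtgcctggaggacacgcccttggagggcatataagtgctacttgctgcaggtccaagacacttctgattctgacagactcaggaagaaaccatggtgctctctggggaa
Hbb-y, chr7:103853158-103853457, minus strand: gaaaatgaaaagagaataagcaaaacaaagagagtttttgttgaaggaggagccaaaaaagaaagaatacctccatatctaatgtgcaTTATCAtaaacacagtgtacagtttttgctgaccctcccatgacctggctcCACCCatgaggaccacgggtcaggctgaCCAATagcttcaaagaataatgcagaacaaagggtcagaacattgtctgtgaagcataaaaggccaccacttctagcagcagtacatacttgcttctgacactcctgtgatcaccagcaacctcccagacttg
H2ac12, chr13:22035594-22035893, minus strand: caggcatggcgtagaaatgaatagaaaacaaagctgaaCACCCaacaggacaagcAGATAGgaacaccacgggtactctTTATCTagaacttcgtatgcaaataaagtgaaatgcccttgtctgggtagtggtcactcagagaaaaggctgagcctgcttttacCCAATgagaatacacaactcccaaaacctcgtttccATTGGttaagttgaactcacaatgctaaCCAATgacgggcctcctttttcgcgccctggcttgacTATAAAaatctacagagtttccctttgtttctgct
H2ac10, chr13:23533625-23533924, plus strand: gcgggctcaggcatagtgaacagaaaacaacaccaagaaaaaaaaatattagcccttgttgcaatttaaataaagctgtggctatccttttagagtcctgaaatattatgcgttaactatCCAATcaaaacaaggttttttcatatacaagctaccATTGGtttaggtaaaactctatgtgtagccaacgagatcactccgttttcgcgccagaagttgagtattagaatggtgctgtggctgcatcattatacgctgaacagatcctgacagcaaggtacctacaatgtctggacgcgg
Afp, chr5:90490464-90490763, plus strand: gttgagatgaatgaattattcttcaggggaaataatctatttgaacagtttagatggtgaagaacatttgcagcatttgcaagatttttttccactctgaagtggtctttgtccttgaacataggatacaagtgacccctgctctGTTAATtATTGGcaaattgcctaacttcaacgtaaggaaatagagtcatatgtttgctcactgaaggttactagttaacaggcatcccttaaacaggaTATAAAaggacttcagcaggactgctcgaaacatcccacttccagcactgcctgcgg
Apoa1, chr9:46228380-46228679, plus strand: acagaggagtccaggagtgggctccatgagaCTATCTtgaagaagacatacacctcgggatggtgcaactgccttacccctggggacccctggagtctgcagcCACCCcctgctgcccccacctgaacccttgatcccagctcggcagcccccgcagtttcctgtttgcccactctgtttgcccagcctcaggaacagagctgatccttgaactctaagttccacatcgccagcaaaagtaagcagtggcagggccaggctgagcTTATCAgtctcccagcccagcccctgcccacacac
Slc2a2, chr3:28697653-28697952, plus strand: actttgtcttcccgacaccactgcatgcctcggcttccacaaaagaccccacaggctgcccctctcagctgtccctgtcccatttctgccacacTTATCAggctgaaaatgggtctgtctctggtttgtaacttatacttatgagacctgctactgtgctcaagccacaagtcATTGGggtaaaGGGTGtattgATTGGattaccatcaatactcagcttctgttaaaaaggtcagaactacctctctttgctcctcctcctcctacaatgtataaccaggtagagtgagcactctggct

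All 3 globin promoters held a GATA word and a CACCC word, and so did those of H2ac12, Apoa1 and Slc2a2. Of all 32851 promoters in the table, 29.8% held a GATA word, 57.5% CACCC, 37.4% CCAAT, 8.32% TATAAA and 7.1% GTTAAT. Among 20 promoters of retained erythroid genes 14 held a GATA word (70%), and among 22 promoters of retained yolk sac genes 5 did (22.7%). GTTAAT was found in 4 of the 22 yolk sac promoters (18.2%), Afp among those shown, and in 0 of the 20 erythroid ones. It was also in 4 of 19 promoters of retained early neuron genes (21.1%), so it was not particular to the yolk sac list. Both histone promoters held CCAAT more than once. A match describes letters only; no binding was measured.

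Globin genes gave some of the brightest signals of the array. Hbb-y (epsilon-y, an embryonic beta-like globin) read 9.13, 9.37, 9.57 and 9.90 on saline 1 to 4, a mean of 9.49 ± 0.33 (SD, n = 4). Hbb-bh1 (beta-h1, the other embryonic beta-like globin) read 9.17, 9.30, 9.54 and 9.75. On these probes both genes were lowest on saline 1 and highest on saline 4, while a second Hbb-y probe, at 9.21, 9.10, 9.52 and 9.57, was lowest on saline 2. Hba-x, the embryonic zeta globin, read 8.27, 8.21, 8.35 and 8.67, and the alpha globins Hba-a1 and Hba-a2 had means of 8.72 ± 0.33 and 9.56 ± 0.36 (SD, n = 4). The probes of the beta globins Hbb-bt, Hbb-b2 and Hbb-bs had means of 3.61, 2.27 and 0.51. Globin genes are close copies of each other, and the files do not say how far one probe also binds another copy, so the share of each copy is uncertain.

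All 27 genes of the erythroid list with a probe were retained, with a median level of 2.27. They included the transcription factors Gata1 (1.89 ± 0.22, SD, n = 4), Klf1 (1.83 ± 0.25), Tal1 (1.65 ± 0.37) and Nfe2 (0.53 ± 0.21). Enzymes of haem synthesis were among them: Urod (5.08 ± 0.11), Fech (3.76 ± 0.09), Alas2 (3.13 ± 0.30) and Cpox (2.66 ± 0.20). The red cell membrane gene Slc4a1 (band 3) had a mean of 3.78 ± 0.31, and Epb42 (protein 4.2) had the largest spread of the list, at -0.36, -1.61, -1.69 and -1.02. Saline 4 was the highest array for 19 of the 27 genes, against 23.2% of all retained genes, and the list's mean lay 0.28 above the 4-array mean there and 0.18 below it on saline 2 (a deviation of -0.18). Hbb-b1 and Ahsp had no probe matched by symbol. In bulk RNA, more cells of a type and more RNA per cell cannot be told apart.

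Histone and ribosomal protein genes filled much of the rest of the top. The brightest named gene was H2ac12, a core histone H2A gene, at 9.44, 9.86, 10.04 and 9.98 on saline 1 to 4 (9.83 ± 0.27, SD, n = 4), followed by H2ac10 at 9.24, 9.50, 9.88 and 9.85. Saline 1 was the lowest array for both. Further H2A genes among the 25 brightest were H2aj, H2ac15, H2ac11, H2ac22 and H2ac20, with means from 9.18 to 9.53. H2A copies are near-identical, so a single H2A gene cannot be credited with its probe's signal. Of 21 genes on the array from the list of replication-dependent histones 19 were retained. H2ac12, H2aj, H2ac15, H2ac11, H2ac22 and H2ac20 were not on that list, so its values do not cover them. The list's mean on saline 1 deviated by -0.54 from the 4-array mean, and saline 1 was the lowest array for 15 of the 19, against 34.7% of all retained genes. H2bc18 had the largest spread of the list, at 2.73, 4.19, 4.12 and 4.23. H2ac4 read 6.87, 7.86, 7.92 and 7.91, and H4c12 read 7.05, 8.45, 7.73 and 7.87. Saline 1 was the lowest of the 4 arrays for all 3 genes, and it stayed the lowest for the list under all 5 other scalings and settings tried.

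All 76 genes of the ribosomal protein list with a probe were retained, with a median level of 8.59, at the 99.3rd percentile of retained probes. Rps10 (9.36 ± 0.21, SD, n = 4), Rpl35 (9.35 ± 0.26), Rps14, Rpl37a and Rplp0 were among the 25 brightest genes. The lowest was Rpl21, whose probe had a mean of 1.43. Of the 100 brightest probes 25 belonged to ribosomal protein genes of the list, 8 to histones and 4 to globins, while 39 carried no gene symbol. These 100 probes took 11.9% to 14.1% of the summed signal of an array. The tubulin gene Tuba1b read 9.34, 9.47, 9.88 and 9.63, the glycolytic enzyme gene Gapdh 8.91, 9.24, 9.59 and 9.38, and the cyclophilin gene Ppia 8.81, 9.10, 9.45 and 9.38. These probes were lowest on saline 1 and highest on saline 3. The second Tuba1b probe (7.86, 7.83, 8.19 and 7.68) and a dimmer Gapdh probe (6.12, 5.33, 6.16 and 5.13) were also highest on saline 3 but were lowest on saline 4. Another Gapdh probe (8.16, 8.37, 8.49 and 8.39) was lowest on saline 1. The ribosomal list deviated by -0.24 on saline 1 and 0.20 on saline 3, a range of 0.44, and under quantile normalization the range was 0.03.

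Some of the 25 brightest genes were bright on 1 probe only. Kctd14 had a probe at 9.43, another at -4.02 and a further one, above background on 1 array, at -5.70. The probes of F10 (coagulation factor X) were at 9.40 and -0.78, and those of Zfp628 at 9.23 and 1.26. For Slc10a1, a bile acid transporter, the second probe was above background on 0 arrays. H2aj (9.53 and -0.62) and the predicted gene Gm5523 (9.31 and -0.43) differed likewise. For these genes the probes disagree, and the bright signal cannot be credited to the gene. Of the 3422 genes with more than 1 retained probe, 377 (11%) had probes more than 5 units apart. Exosc2, a subunit of the RNA exosome, had 1 probe, at 9.27.

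**Figure D1:**
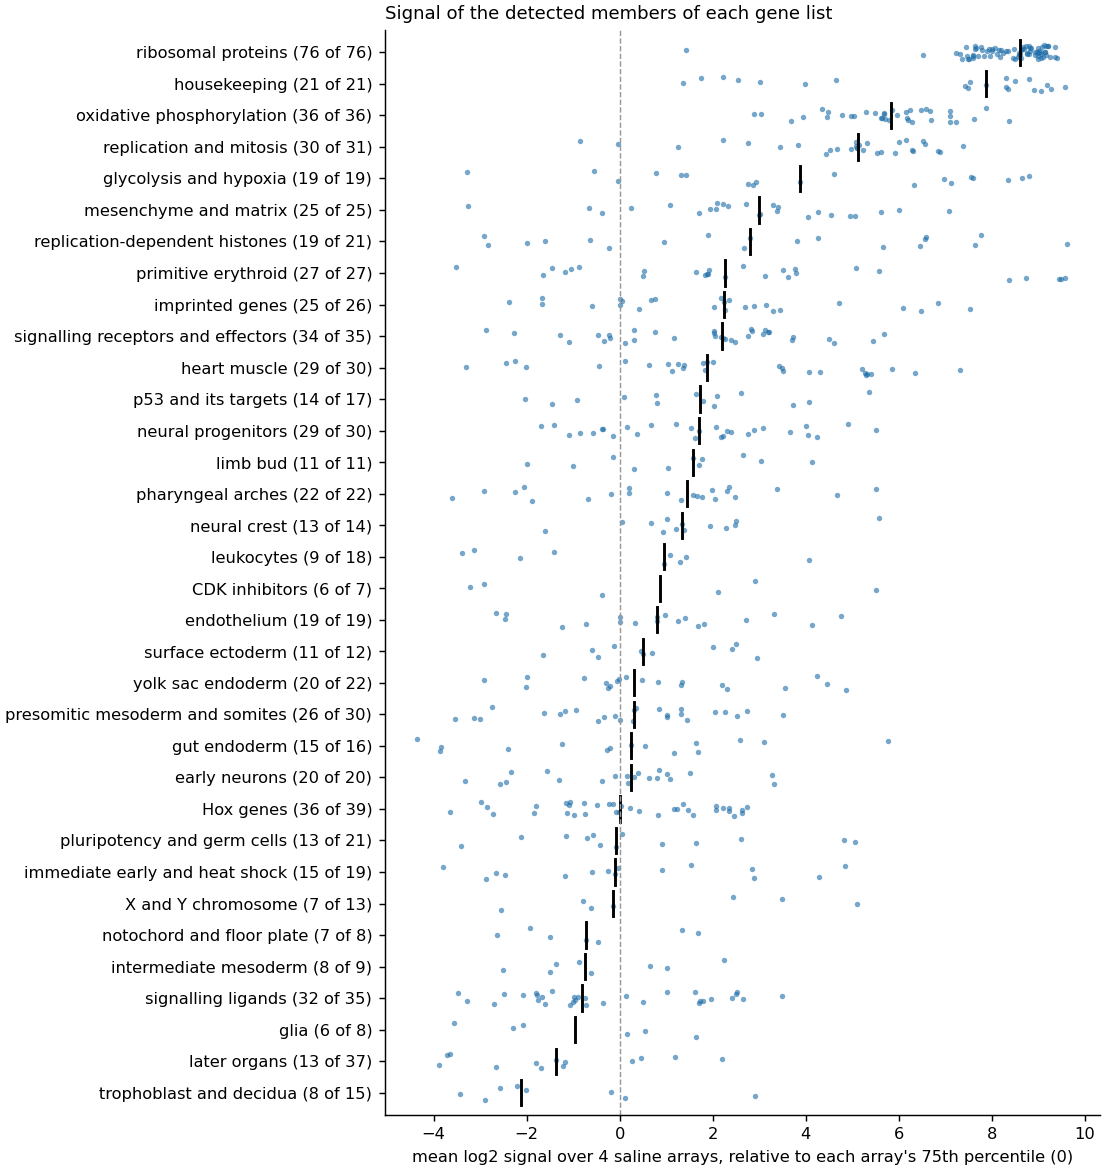
Mean log2 signal over the 4 saline arrays, relative to the 75th percentile of each array (x axis), of the retained genes in each of 34 gene lists (y axis, with the retained genes and those on the array). Each point is 1 gene, the black bar is the list's median, and 0 is the dashed line; the medians run from -2.11 for trophoblast and decidua to 8.59 for ribosomal proteins.

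Nearly all listed genes of energy metabolism and cell division were retained, against 68.8% of all genes. The lists hold chosen members and do not cover these programmes as a whole. All 36 genes of oxidative phosphorylation were retained (median level 5.82), with the largest signals from Cox6a1 (8.36 ± 0.22, SD, n = 4), Atp5b (7.88 ± 0.16) and Cox8a (7.61 ± 0.21). All 19 genes of glycolysis and the hypoxia response were retained, Ldha (8.79 ± 0.22), Eno1 (8.65 ± 0.27) and Aldoa (8.34 ± 0.22) the brightest, and Car9, a hypoxia-induced carbonic anhydrase, the dimmest at -3.29. Of 31 genes of replication and mitosis 30 were retained, at a median SD of 0.14 against 0.21 over all retained genes. Cdk4 (7.39 ± 0.15), the replicative helicase subunit Mcm6 (6.89 ± 0.16) and the polymerase clamp Pcna (6.83 ± 0.14) led, and Ccne2 was above background on 0 arrays. The cyclin gene Ccnd2 had the largest spread of the list and read 5.46, 4.84, 5.72 and 4.93. Of the inhibitors of cyclin-dependent kinases, Cdkn1c (p57, an imprinted gene) had a mean of 5.50 ± 0.23 and Cdkn2a one of -3.22 ± 1.14, with 1 high array, saline 2 at -1.66.

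The heart was represented by 29 of 30 muscle genes. Actc1, the cardiac actin, read 7.26, 7.41, 7.58 and 6.98 on saline 1 to 4, and the atrial light chain gene Myl4 read 6.02, 6.67, 6.47 and 6.25. The heavy chains Myh6 and Myh7, found in atria and ventricles of the embryo, had means of 5.30 ± 0.22 and 5.40 ± 0.09 (SD, n = 4). Actc1 and Myl4 had SDs of 0.25 and 0.28, against a median of 0.21 over all retained genes. Cardiac transcription factors were retained too: Nkx2-5 at 1.22, 1.80, 1.53 and 0.99, with Hand1, Tbx5 and Gata4 at means of 1.26, 1.04 and 0.63. The natriuretic peptide gene Nppa had a mean of 3.42 ± 0.12. Sln (sarcolipin) had the largest spread of the list, from -2.90 on saline 1 to -1.51 on saline 4. Hcn4, a pacemaker channel gene, was above background on 0 arrays.

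All 19 genes of the endothelium list were retained. Egfl7, a vessel-secreted protein, had a mean of 4.75 ± 0.22 and the VEGF receptor Kdr one of 4.13 ± 0.40 (SD, n = 4). Kdr was highest on saline 2 (4.68 against 3.78 to 4.16). Lyve1, a receptor of lymphatic vessels and of some macrophages, was the member with the largest spread, at -3.26, -0.62, -2.76 and -3.12, and saline 2 stood highest. Matrix and mesenchyme genes were retained for all 25 members, with a median level of 2.99: Sparc (7.08 ± 0.22), vimentin (Vim, 6.01 ± 0.28) and fibronectin (Fn1, 5.61 ± 0.37) led.

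Of 30 genes of neural progenitors 29 were retained. Hes5, a Notch target of dividing neural cells, read 5.68, 5.05, 5.58 and 5.69, and the neural cadherin Cdh2 read 4.61, 4.92, 4.99 and 5.07. Sox2, which keeps neural cells in the progenitor state, read 2.19, 2.15, 2.20 and 2.16, an SD of 0.02 that was 0.15 with median centring. Pax6, of the forebrain, eye and ventral neural tube, read 0.21, -0.38, 0.23 and -0.59. Sox3 had a mean of 4.24 ± 0.25 (SD, n = 4), and Zic2 had the largest spread of the list (SD 0.54), with saline 3 highest at -0.63 and saline 1 lowest at -1.81. The midbrain gene En1 was above background on 2 arrays, while the midbrain gene En2 and the hindbrain gene Gbx2 had means of 1.54 and 0.16. 

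Neural crest and pharyngeal arch genes were retained for 13 of 14 and 22 of 22 members. Crabp1, a retinoic acid binding protein of crest and hindbrain, had a mean of 5.58 ± 0.16 (SD, n = 4), and Twist1 one of 2.47 ± 0.05. Sox10 and Foxd3, of the early crest, had means of 0.94 and -1.61. In the arches Eya1 (5.51 ± 0.31), Prrx2 (4.67 ± 0.26) and Pitx1 (3.38 ± 0.27) led. Lhx8, a homeobox gene of the first arch and ventral forebrain, had the largest spread, at -2.11, -2.95, -2.58 and -0.56. It was highest on saline 4 and lowest on saline 2. All 11 limb bud genes were retained, Meis1 (4.13 ± 0.09) and Meis2 (3.03 ± 0.17) foremost, and both Tbx5 of the forelimb and Tbx4 of the hindlimb (means 1.04 and 0.32) were above background on all 4 arrays.

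Of 30 genes of the presomitic mesoderm and somites 26 were retained. Meox1 (3.52 ± 0.23, SD, n = 4) and Tcf15 (2.73 ± 0.19), of formed somites, and Dll3 (2.52 ± 0.16), a Notch ligand of the segmentation clock, led. Cdx2, of the tail end, read 0.06, 1.20, 0.85 and -0.68, the largest spread of the list. T (brachyury), of the tail bud and notochord, read -0.59, -0.06, -0.23 and -1.03. Cdx2 and T were both highest on saline 2 and lowest on saline 4. The muscle determination genes Myf5 and Myod1 were above background on 0 arrays, while their relative Myog had a mean of -1.18. Of the notochord and floor plate genes 7 of 8 were retained, Foxa2 (1.67 ± 0.17) and Ntn1 (1.35 ± 0.24) among them, with Shh at -0.49, -0.75, -0.77 and -0.92, and Noto was above background on 0 arrays. Of the gut endoderm genes 15 of 16 were retained; the simple keratins Krt18 and Krt8, also made in other epithelia, read 5.47, 6.19, 6.16 and 5.25 and 3.23, 3.14, 3.83 and 2.19. Both were lowest on saline 4. The pancreas gene Pdx1 was above background on 0 arrays.

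Hox genes give cells of the trunk their position along the body axis, and the paralogue groups are switched on in the order of their numbers. Of 39 Hox genes on the array 36 were retained. All 30 genes of groups 1 to 10 were retained, and 6 of the 9 of groups 11 to 13. Hoxb13 and Hoxc12 were above background on 0 arrays and Hoxc13 on 1. The brightest were Hoxc6 (2.59, 2.69, 2.67 and 3.02), Hoxa7 (2.28, 2.58, 2.90 and 2.79) and Hoxb4 (2.57, 2.45, 2.76 and 2.69). Within groups 11 to 13 the retained means lay between -3.66 and -0.07. Hoxd12 had the largest spread of all Hox genes, at -2.84, -4.18, -3.47 and -1.45, and Hoxa13 was near the dim end of the retained range at a mean of -3.66. Averaged over the retained members, the deviations of the family were -0.05, -0.04, 0.04 and 0.06. With median centring they were -0.04, -0.13, 0.21 and -0.03.

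**Figure D2:**
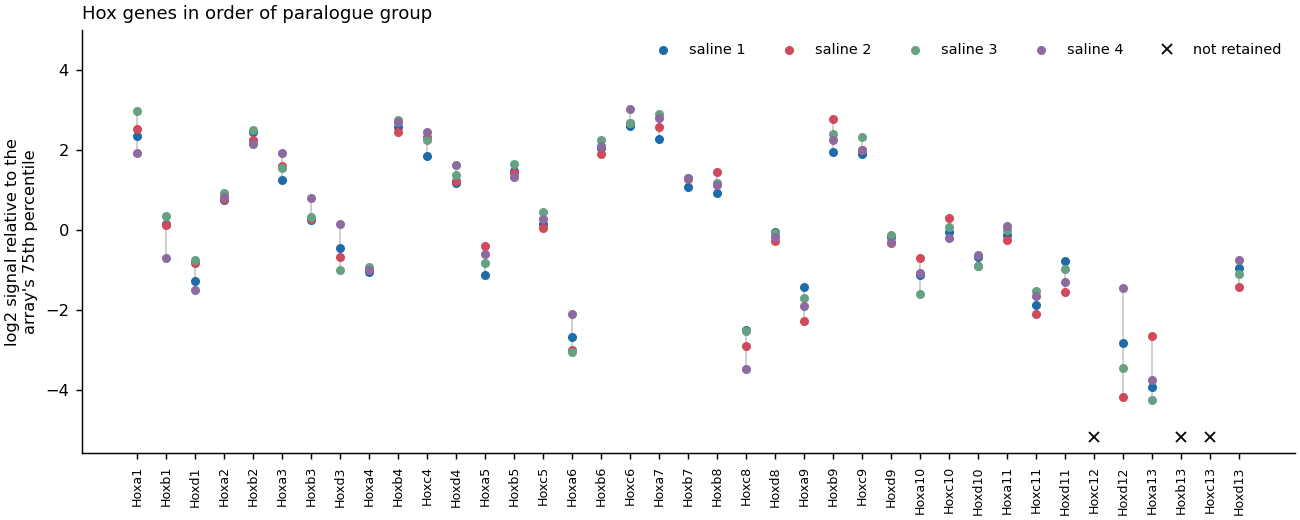
Log2 signal relative to the array's 75th percentile (y axis) of each of 39 Hox genes in order of paralogue group (x axis), 1 point per saline array, with a cross for the 3 genes that were not retained. All 30 genes of groups 1 to 10 have 4 points; the crosses lie in groups 12 and 13.

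Among signals that pattern the embryo, 32 of 35 ligand genes and 34 of 35 receptor and effector genes were retained. Bmp4 had a mean of 3.48 ± 0.16 (SD, n = 4), Wnt5b one of 2.66 ± 0.23 and Fgf8, of the midbrain border, arches and tail, one of 1.71 ± 0.20. Ihh, a hedgehog ligand of gut and yolk sac endoderm, had the largest spread of the ligands, at -1.73, 0.11, -0.93 and -1.69. Saline 2 was the highest array for Ihh. On the receiving side Acvr2b (5.68 ± 0.08), an activin receptor, the hedgehog transducer Smo (5.45 ± 0.14) and Fgfr1 (4.60 ± 0.20) led. The retinoic acid synthesising enzyme Aldh1a2 had a mean of 3.11, and of the degrading enzymes Cyp26b1 and Cyp26a1 had means of 2.83 and 0.31, while Cyp26c1 was above background on 3 arrays. Notch1 had the largest spread of the list, at -1.95, -3.50, -2.38 and -1.30, on the 1 retained of its 2 probes. The nodal antagonist Lefty1 was above background on 0 arrays.

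The p53 pathway, the subject named in the title of the study, was measurable in saline embryos. Trp53 itself read 1.71, 2.35, 1.96 and 2.06 on saline 1 to 4 (2.02 ± 0.26, SD, n = 4). Mdm2, the ubiquitin ligase that p53 induces and that degrades p53, read 3.38, 3.89, 3.73 and 3.86. Both were lowest on saline 1 and highest on saline 2. Of the 17 genes of p53 and its targets 14 were retained, led by Aen (5.35 ± 0.21), an apoptosis-linked nuclease, and the apoptosis activator Bax (4.07 ± 0.25). The arrest gene Cdkn1a (p21), counted among the kinase inhibitors, had a mean of -0.38. Rrm2b, the p53-induced subunit of ribonucleotide reductase, was above background on 2 arrays, Gdf15 on 1 and Eda2r on 0. Mdm4 had the largest spread, at -1.57, -2.16, -1.44 and -0.63.

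Of 19 immediate early and heat shock genes 15 were retained (78.9%, against 68.8% of all genes). Dnajb1 (4.84 ± 0.22, SD, n = 4), Jund (4.29 ± 0.14) and Jun (2.89 ± 0.24) led. Fos was above background on 2 arrays, Junb on 3, and Egr3 and Zfp36 on 0. Ier2 had the largest spread, at 0.69, -0.92, 0.56 and -0.74, so that saline 1 and 3 lay above saline 2 and 4. Ccnd2, given above, was also higher on saline 1 and 3. Those 2 arrays with higher values were on different slides, and saline 1 and saline 3 were also the closest pair of arrays over all retained probes, with a median absolute difference of 0.23 against 0.25 to 0.28 for the other pairs.

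Genes of pluripotent and germ cells were retained for 13 of 21 members (61.9%, against 68.8% of all genes). Lin28a and Lin28b, RNA-binding proteins of early embryos, led with 5.07 ± 0.49 and 4.82 ± 0.29 (SD, n = 4), and Sall4 followed with 2.61 ± 0.24. Lin28a read 4.70, 5.58, 5.38 and 4.60, so that saline 2 and 3 lay above saline 1 and 4. Pou5f1 (Oct4) was above background on 3 arrays and dim on each, and Dppa2, Dppa3, Dppa4 and Dazl were so on 0. Nanos3, of primordial germ cells, had a mean of 1.64 ± 0.31, and L1td1 had the largest spread (-0.60, 1.27, -0.17 and -0.28), with saline 2 highest. Among imprinted genes, of which 25 of 26 were retained, the paternally expressed Mest (7.52 ± 0.09) and Dlk1 (6.48 ± 0.05) differed little between arrays under this scaling. With median centring their SDs were 0.22 and 0.15. The noncoding Meg3, the maternally expressed neighbour of Dlk1, read 3.60, 2.94, 2.33 and 4.91, and its other 2 probes were also highest on saline 4.

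Of 13 genes on the array from a short list of sex-linked genes 7 were retained (53.8%, against 68.8% of all genes). Xist, the RNA that coats the inactive X chromosome of female cells, read -1.25, -4.10, -3.16 and -1.73 on saline 1 to 4. The Y-linked Ddx3y read -1.40, -0.50, -0.52 and -0.05, and Eif2s3y read -0.99, 0.14, -0.05 and 0.29. Both Y-linked genes were lowest on saline 1, where Xist was highest, and all 3 were above background on every array. Kdm5d, Usp9y, Zfy1 and Zfy2 were above background on 0 arrays and Uty and Sry on 1. The sources used here do not give the sex of the embryos or how many were pooled. The X-linked partners Ddx3x (5.10 ± 0.25, SD, n = 4), Kdm5c (3.50 ± 0.07) and Eif2s3x (2.43 ± 0.30) gave brighter probe signals. Signals of different probes are not on 1 scale of RNA amount, so this does not compare the RNA of X-linked and Y-linked partners.

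Markers of cells from outside the embryo proper and of later organs were checked against the label of whole embryo. Of 37 genes of later organs 13 were retained (35.1%, against 68.8% of all genes). Another 17 were above background on 0 arrays, among them the surfactant gene Sftpc, growth hormone (Gh), the kidney gene Umod and the muscle enzyme gene Ckm. Acta1, the skeletal actin (2.19 ± 0.40, SD, n = 4), and Prm1, a sperm protamine (1.18 ± 0.57), were the brightest retained. Of 18 leukocyte genes 9 were retained (50%) and Lyz2 and S100a8 were among those above background on 0 arrays. The defining gene Ptprc (CD45) was above background on 1 array. Itgam, an integrin of myeloid cells, had a probe at 4.06 and other probes at -3.02 and -3.40, so its probes disagree. Csf1r, the macrophage growth factor receptor, read 1.46, 0.75, 2.04 and 0.90. Of 15 trophoblast and decidua genes 8 were retained (53.3%), among them the placental genes Prl3b1 (0.18, 0.36, 0.11 and -0.18) and Plac1 (-0.45, 0.16, 0.18 and -0.64). Tpbpa, Ctsq, Prl8a9 and Prl7a1 were above background on 0 arrays. The mean deviation of the 8 lay between -0.29 on saline 1 and 0.46 on saline 2. Of 8 glial genes 6 were retained (75%), near the 68.8% of all genes. S100b was above background on 0 arrays and Gfap on 2. The myelin gene Mbp had a mean of 1.64 ± 0.10 on 1 probe and one of -4.11 on another.

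The median SD over retained probes was 0.24, with 10% of probes under 0.109 and 10% over 0.56. For 304 retained probes printed at several spots, the median SD between repeat spots of 1 array was 0.07 to 0.096, depending on the array. The first value is a spread between separate samples over all retained probes and the second a technical error over these 304 probes. With the probes split by mean signal into 10 equal classes, the median SD between arrays was 0.34 and 0.35 in the 2 dimmest classes and 0.18 to 0.19 in the 3 brightest. Leaving out saline 2 or saline 4 lowered the median to 0.22.

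**Figure D3:**
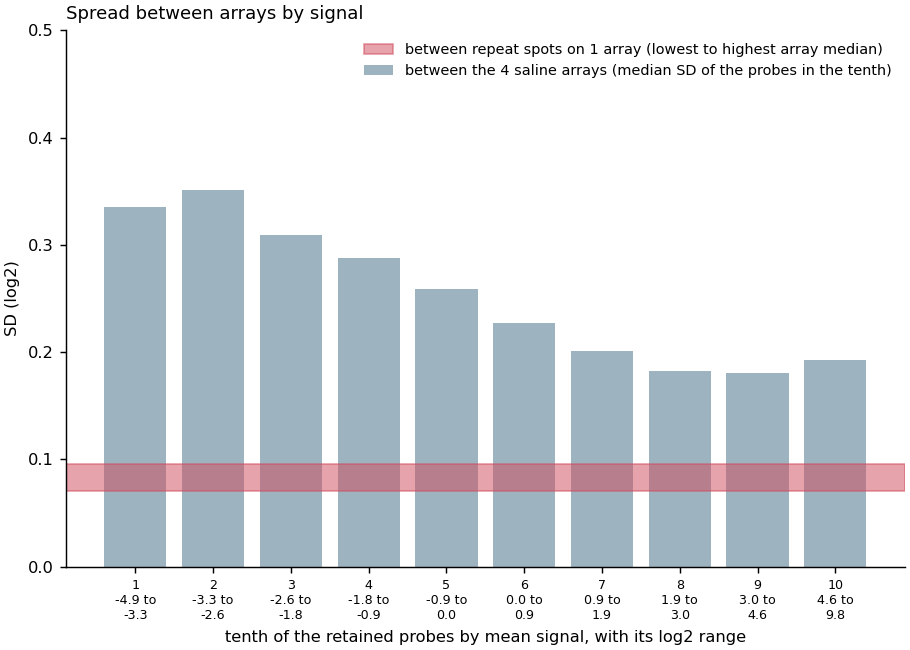
Median SD between the 4 saline arrays (bars, y axis, log2) in each of 10 equal classes of the 27706 retained probes ordered by mean signal (x axis, with the log2 range of each class). The red band runs from the lowest to the highest array median of the SD between repeat spots, 0.07 to 0.096 over 304 probes, and the bars are 0.34 and 0.35 in the 2 dimmest classes and 0.18 to 0.19 in the 3 brightest.

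Genes with the lowest SD were chosen among the brighter genes. Among the top 25% of genes by signal, Mtx2, a mitochondrial outer membrane protein, read 3.80, 3.83, 3.81 and 3.82, an SD of 0.01. Mrpl32, of the mitochondrial ribosome, read 2.99, 3.00, 3.03 and 3.00, and Marcksl1, an actin regulator, 6.13, 6.12, 6.14 and 6.17. Nup54 of the nuclear pore, Kansl2, Tspyl1, the splicing factor Srsf4, the citric acid cycle gene Idh3g, Isyna1, Ampd2, Zfp422 and Myh8 had SDs from 0.022 to 0.03. These low SDs depended on the scaling: over the 12 genes they lay between 0.011 and 0.03, and with median centring between 0.119 and 0.149. Over all retained genes 1504 had an SD under 0.1.

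Genes of the yolk sac endoderm stood apart from every other list. Of 22 genes on the array 20 were retained, and 18 of the 20 had an SD over 1 (16 with normexp), against 161 of all 13860 retained genes (1.16%). The list's mean deviated by -1.62, 2.11, -0.39 and -0.10 on saline 1 to 4, a range of 13.3-fold. Saline 2 was the highest array for all 20, against 30% of all retained genes, and saline 1 the lowest for 18, against 34.7%. The same arrays were highest and lowest for the list under all 5 other scalings and settings. Without saline 2 the range between the other arrays was 1.53 in place of 3.73 (log2). Saline 1 and 2 were on the same slide, so the widest gap lay within a slide.

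Afp, alpha-fetoprotein, read 3.28, 6.79, 4.28 and 5.10, 11.4-fold between the lowest and the highest array. Ttr, transthyretin, a carrier of thyroid hormone and retinol, read 0.30, 4.78, 1.97 and 2.14, and its partner Rbp4, the retinol binding protein, 2.80, 6.55, 4.29 and 4.19. In all 3 saline 2 stood highest and saline 1 lowest, with saline 3 and 4 between them. Apom, of high-density lipoprotein, read -0.90, 4.46, 0.59 and 1.15, a 41.2-fold range. Apoa1, the main protein of that lipoprotein, read -2.20, 2.27, -0.60 and -0.48, and Apob, of the larger lipoproteins, -2.30, 1.84, -0.79 and 0.40. The fibrinogen chain genes Fga, Fgb and Fgg had SDs of 1.72, 1.25 and 1.65. Lipid carriers and clotting proteins thus shared the order of the arrays at the top and bottom.

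The uptake genes and the regulators of this tissue followed. Cubn, the cubilin receptor, read -1.48, 3.34, 0.01 and 1.40, and Amn (amnionless), its partner, -2.01, 1.86, -0.45 and -0.54. Lrp2 (megalin), which works with cubilin and is also made in neural tube and kidney, read 1.34, 1.68, 0.95 and 1.36, an SD of 0.30. Hnf4a, the transcription factor of liver and yolk sac endoderm, read -1.75, 2.07, -0.37 and -0.19. Lrp2 and Cited1 (4.24 ± 0.59, SD, n = 4), a transcriptional coactivator, were the members with an SD under 1. Slc2a2, a glucose transporter, had the largest SD of all retained genes (2.59), at -4.88, 1.40, -2.52 and -2.01. Its value on saline 1 was near the dim end of the retained range, where background subtraction weighs most, and with normexp background correction its SD was 1.75. Alb and Ahsg, serum proteins of the liver, were above background on 3 and 2 arrays. Alb read -3.71, -5.36, -3.33 and -3.23, so that saline 2 was its lowest array, unlike the retained members.

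**Figure D4:**
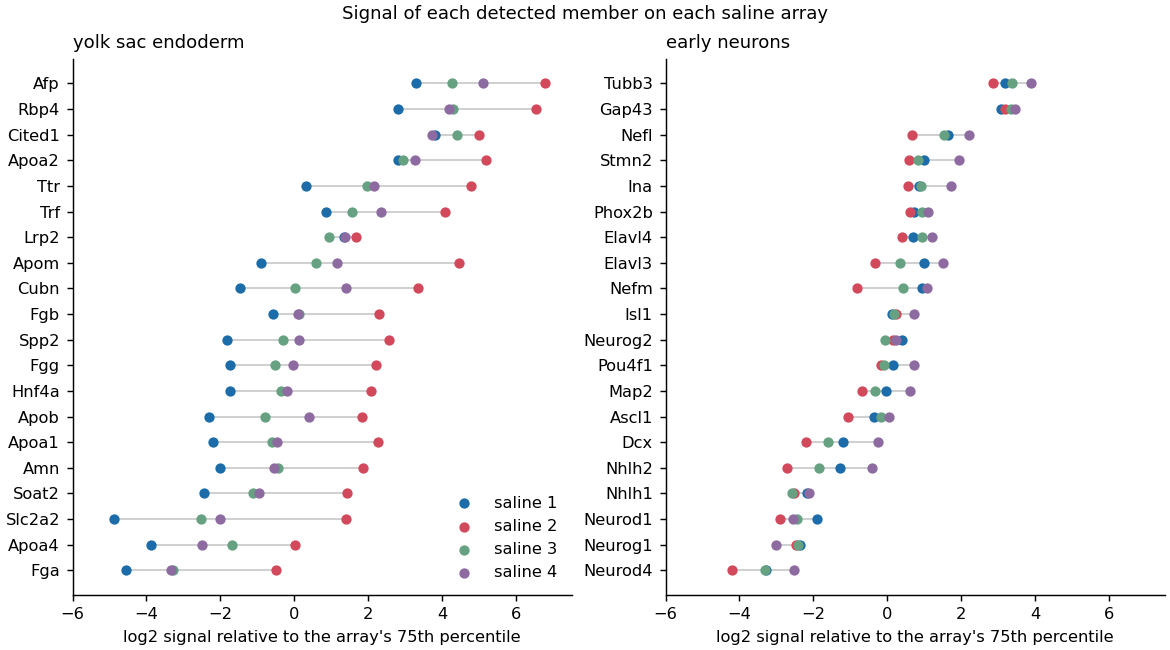
Log2 signal relative to the array's 75th percentile (x axis) of each retained gene of the yolk sac endoderm list (left, 20 genes) and the early neuron list (right, 20 genes), 1 point per saline array joined by a grey line. Saline 2 is rightmost for all 20 yolk sac genes; saline 4 is rightmost for 17 of 20 neuron genes and saline 2 leftmost for 15.

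The same order of arrays reached beyond the list. Of the 161 genes with an SD over 1, 98 (60.9%) were highest on saline 2 and lowest on saline 1, against 15.1% of all retained genes. Of these 98, 80 were not on the yolk sac list. Among the 12 genes with the largest SD they included Erich4, the amino acid transporter Slc7a9, the calcium-binding S100g (-0.76, 4.43, 1.12 and 2.04), the lectin Mbl2, Hsd17b2, Mcoln2 and 4933402E13Rik. The fold between highest and lowest array had a median of 11.4 over the 98 genes. With normexp background correction this median was 4.76, and 60 genes had an SD over 1, of which 46 (76.7%) had that order. All 98 kept the order with normexp, and 94 with median centring and with quantile normalization. Of the 12, Nr1i3, a nuclear receptor, alone had another order, at -3.59, -4.69, 0.68 and -2.44, high on saline 3. Rhox6, of placenta and germ cells, read -3.84, -0.32, -3.36 and -2.80 and had the largest spread of the trophoblast and decidua list. The share of yolk sac membrane in each sample was not measured, and its part in these values was not tested.

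Genes of early neurons had the second widest range of the 34 lists, 2.03-fold, in another order. All 20 genes on the array were retained. The list's mean deviated by 0.09, -0.51, -0.08 and 0.51, with saline 4 the highest array for 17 of the 20 genes and saline 2 the lowest for 15, against 23.2% and 21% of all retained genes. These arrays stayed highest and lowest under all 5 other scalings and settings. Nhlh2, of newly formed neurons, read -1.27, -2.70, -1.86 and -0.43, the neurofilament gene Nefm 0.93, -0.82, 0.41 and 1.07, and Dcx (doublecortin), of migrating neurons, -1.20, -2.20, -1.60 and -0.24. Tubb3, the neuronal tubulin, read 3.19, 2.86, 3.37 and 3.89 and Gap43, of growing axons, 3.09, 3.19, 3.33 and 3.45. The 3 genes not highest on saline 4 were Neurog1, Neurog2 and Neurod1, which were highest on saline 1. Gap43, Isl1, Neurog1, Neurog2 and Nhlh1 were the 5 genes not lowest on saline 2. Progenitor genes spread less, with list deviations from -0.15 to 0.10. Without saline 2 the range of the neuron list was 0.59 in place of 1.02 (log2), and without saline 4 it was 0.60.

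The lists for yolk sac endoderm, early neurons, trophoblast and decidua, primitive erythroid, and presomitic mesoderm and somites, 5 of 34, kept both their highest and their lowest array under all 5 other scalings and settings. The members of the trophoblast list did not share its order. Saline 2 was the highest array for 5 of its 8 genes, against 30% of all retained genes. Saline 1 was the lowest for 3, against 34.7%, while 4 were lowest on saline 4. Of its 3 genes with an SD over 1, Rhox6 and Rhox9 had the list's order and Gcm1 was lowest on saline 2. In the presomitic list the deviations were -0.03, 0.07, 0.17 and -0.21, highest on saline 3 and lowest on saline 4. For the other 29 lists the highest or the lowest array changed under at least 1 of them, so their order was not firm at both ends. Some of these lists kept 1 end under all 5, such as saline 1 as the lowest array for the replication-dependent histones.

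**Figure D5:**
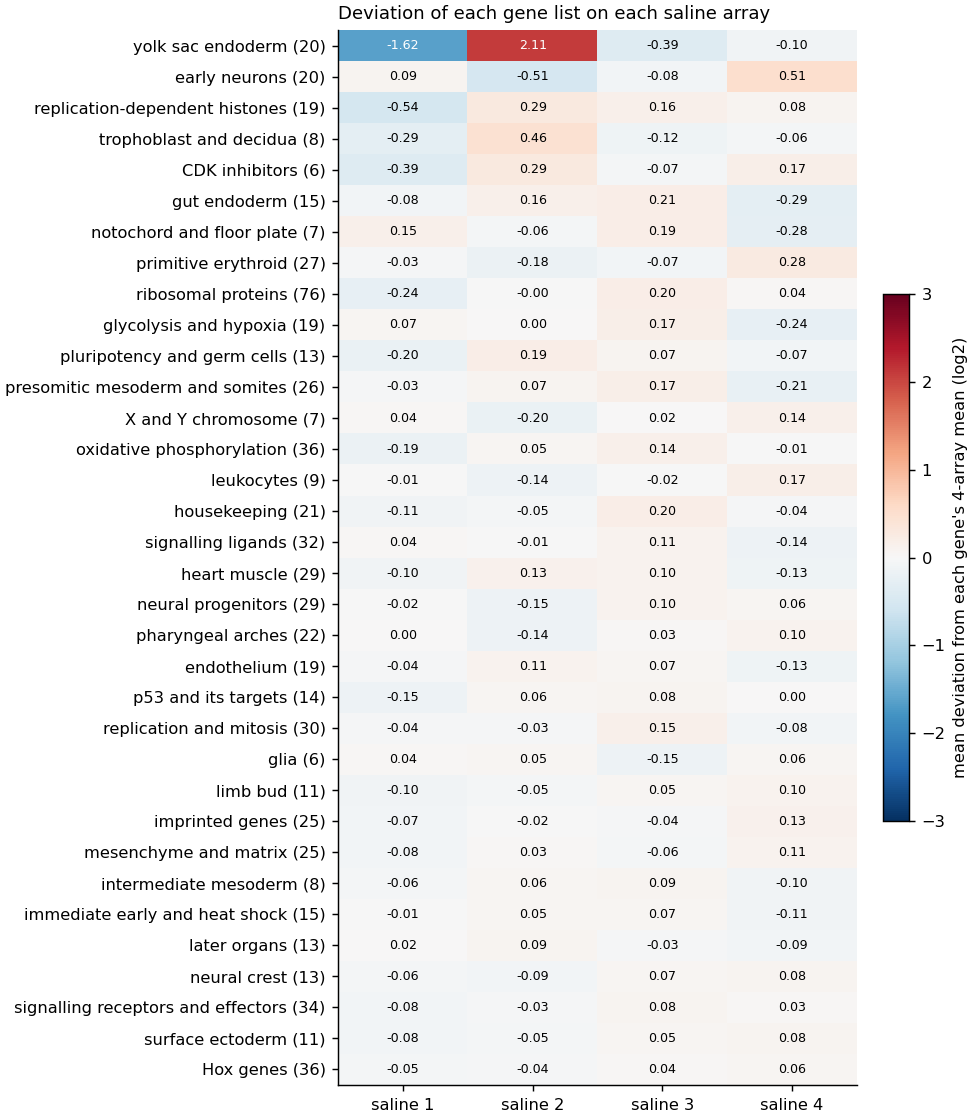
Mean over the retained genes of each list (rows, with the number of genes) of the log2 deviation from the gene's own 4-array mean, on each saline array (columns), in colour and as a number. The yolk sac endoderm row runs from -1.62 on saline 1 to 2.11 on saline 2, and the early neuron row from -0.51 on saline 2 to 0.51 on saline 4.

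The slide is the one grouping that the labels give within the saline samples, and it was tested in a limma fit over all 27706 retained probes, 2 arrays against 2. Of these, 0 (0%) had a Benjamini-Hochberg adjusted p under 0.05 for slide 2 minus slide 1, and 514 had an unadjusted p under 0.05. With an intensity trend in limma the counts were 0 and 403. The median difference over all probes was 0.03. Slide, scan resolution and any grouping by experiment cannot be told apart here, and with 2 arrays a slide a call needs a difference far above the spread.

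Signals of retained and other probes overlapped. The dimmest retained probes had means of -4.87, -4.66 (both without a gene symbol) and -4.64 (Adamts5, a matrix protease). Of the 2248 probes above background on 3 arrays, the median level was -4.25. The 3 brightest of them missed only because their single spot on the remaining array had been marked as an outlier: a probe without a symbol at a mean of 8.49, an Ensembl transcript at 8.06 and Tardbp, an RNA-binding protein gene, at 7.11. With a value on all 4 arrays the brightest was 5830417I10Rik, at 2.53, 2.49, -7.02 and 2.31. Detection also depended on the kind of probe. Of 26392 probes for RefSeq mRNAs 67.7% were retained, of 771 for RefSeq noncoding RNAs 45.4%, and of 16194 for chromosome intervals 28.3%. The brightest interval probe lay in chr11:22681800-22707775 (mm9, as the array headers of slide 1 name the build) at 8.34, 8.65, 8.92 and 8.83.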

How the data were processed

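Each scanner file holds 1-colour Cy3 intensity values that the authors deposited; per the file headers and the submitters' processing notes they come from Agilent Feature Extraction 11.5.1.1, whose processed signal is background-subtracted and not scaled between arrays. Only the 4 saline arrays were used. Spots flagged as outliers (151 to 224 an array) and control spots were left out, log2 signals were averaged per probe, and each array's 75th percentile was subtracted. A probe was retained when at least 50% of its spots were well above background on all 4 arrays. Probes were named by RefSeq accession (26582 of 55681) with a table of GRCm38.p6. The slide was tested with limma 3.58.1 in R 4.3.3, adjusted by Benjamini-Hochberg, two-sided, and the step was tested on simulated data. Python 3.11.15 did the rest.

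The samples, the 34 lists (794 genes, 776 on the array by exact symbol) and the rule for naming genes were chosen with earlier results of these data known. Named were the 25 brightest genes, the 3 brightest members and the most variable member of each list, the 12 most and, in the top 25% by signal, least variable genes, and Hba-x, Hbb-bh1, Hbb-y, Afp, Ttr, Xist, Ddx3y, Eif2s3y, Kdm5d, Uty, Trp53, Mdm2, Pou5f1, T, Shh, Fgf8, Nkx2-5, Sox2 and Pax6; this gave 179 retained genes. Other list members were picked after their values were seen. Alternatives were other scalings, normexp on the median signal (offset 50), other detection rules, and leaving out each array. Some genes picked by the rule are not reported here.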

Additional observations from a re-analysis of the deposited data

Results flagged for a closer look

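With 4 arrays, a value was picked out when its gap to the nearest array was so large a share of the range of the 4 that it passed Dixon's 95% criterion; the share is given as a ratio. Of 219 measures tested 13 passed, and 4.87% of all retained genes passed too; chance gives about 1 in 20. The spike-in control probes had a mean log2 signal over the 75th percentile of 1.52 on saline 1 against 2.74, 2.85 and 2.70 on the others (ratio 0.885). The mean deviation of the glial list was low on saline 3 (ratio 0.922). H2ac4 (0.944), H2bc18 (0.927), Meis1 (0.906), Fgfr1 (0.843) and Mitf (0.836) were low on saline 1. Vim (0.895) and Hes5 (0.831) were low on saline 2. Eno1 (0.920) was high on saline 3. On saline 4 Cdkn1b (0.852) and Tbx2 (0.833) were high and Pdk1 (0.921) was low. The part of the spike-in signal of saline 1 in its low histone values was not tested.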

How the results depend on the processing

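The 27706 retained probes became between 27722 (outlier spots kept) and 35575 (the weaker flag of positive and significant signal) under other rules, and 27734 to 28860 without 1 array. The median SD between arrays, 0.24, was 0.279 with median centring, 0.198 with normexp, 0.416 without the filter on dim probes and 0.221 to 0.241 without 1 array. The median SD between repeat spots, 0.0844, was 0.13 with normexp, and that between probes of a gene, 1.36, was 1.11 with normexp. The count of retained probes with SD over 1, 394, was 141 with normexp and 352 to 577 without 1 array. These last counts and the ranges of the 2 lists were recomputed under alternatives chosen after seeing the data. The 161 genes with an SD over 1 were 60 with normexp. The range of the yolk sac list, 3.73, was 1.53 to 3.73 without 1 array, and that of the neuron list, 1.02, was 0.59 to 1.02; in both the smallest was without saline 2. The slide fit called 0 probes under every alternative. The percentile of the 179 named genes moved by more than its spread between arrays for 36 with normexp and for 45 with the mean of a gene's probes, and for 0 with quantile normalization. It moved so for 27 without saline 3, for 14 without saline 4 and for 0 without saline 1 or without saline 2. Counts of list members retained stayed within 1.5 times in 170 of 170 recomputations. No paired analysis was possible because only saline samples are used and their numbers are names. For the values that moved, the cause was not tested. The 4 arrays limit precision, dim signals most.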

Other observations

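The gene lists did not cover some genes that differed much between arrays, and these were picked after their values were seen. Among the 98 genes that were highest on saline 2 and lowest on saline 1, Rhox5, active in extraembryonic tissue, read 0.96, 4.90, 2.10 and 2.10, and Trap1a, Esx1 and Xlr5c shared that order. Rhox6 and Rhox9, of the trophoblast and decidua list, had it too. Rhox8 was highest on saline 4 and lowest on saline 2, and Rhox2h was highest on saline 2 and lowest on saline 4. The order of Rhox5 was also that of the intestinal and kidney brush border genes Vil1 (-2.92, 0.64, -1.59 and -1.62) and Pdzk1 (-1.70, 2.72, -0.23 and -0.30). The trypsin inhibitor gene Spink1 (-0.04, 4.44, 1.76 and 1.63) and the folate receptor gene Folr1 (-0.21, 3.01, 0.85 and 0.77) shared it as well.

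Another set was highest on saline 4 and lowest on saline 2, which holds for 21 of the 161 genes with an SD over 1, against 7.93% of all retained genes. The axon guidance receptor gene Dcc read 3.00, 1.43, 2.75 and 5.23. The brightest probe of Rhox8 read 2.56, 0.73, 2.60 and 4.82, and that of Gcm1, a placental transcription factor, 3.00, 1.24, 2.63 and 4.74, so that these 3 probes of unrelated genes gave nearly the same 4 values. A second probe of Gcm1 read 2.64, 0.86, 2.46 and 5.03, while a further probe was above background on 0 arrays and the other probe of Rhox8 read -0.78, -0.65, -0.88 and -0.95. The noncoding RNA Malat1 read 0.29 on saline 4 and -2.53 on saline 3, and Mir17hg, the host of a microRNA cluster, read 1.44, 1.06, 0.13 and 2.95. Trim12c was high on saline 1 alone (-0.83 against -4.24 to -4.07), and Zfp979 was low on saline 2 alone (-2.97 against 0.23 to 0.81).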
